A study of Oryza sativa Japonica Group with 8 samples.

Results

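The rice genes for the pattern receptors CERK1, CEBiP, LYP4, LYP6 and FLS2 and their partners SERK2 and RLCK185 are described here, 7 of 28490 genes with an unambiguous probe on the array. They were chosen by locus identifier: CERK1 is Os08g0538300, CEBiP is Os03g0133400, LYP4 is Os09g0452200, LYP6 is Os06g0208800, FLS2 is Os04g0618700, SERK2 is Os04g0457800 and RLCK185 is Os05g0372100. By these identifiers they lie on chromosomes 8, 3, 9, 6, 4, 4 and 5. Every non-control probe whose name starts with 1 of these identifiers was taken, 15 of 42477 probes in all. CERK1 and LYP4 had 2 probes each, SERK2 had 3, RLCK185 had 5 and the other genes had 1. Probes are called by the cDNA accession in their name. The reference gene table holds CEBiP and LYP4 as unique names on the chromosome of the locus. It holds the name CERK1 for 2 genes, 1 of them on chromosome 8, and was not found to hold the other 4 names, which rest on the locus list.

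Pattern receptors are the plasma membrane proteins with which a plant cell detects fragments of microbes. In rice, CEBiP, a lysin motif (LysM) protein with no kinase domain of its own, binds chitin fragments from fungal walls and acts together with CERK1, a LysM receptor kinase that carries the signal into the cell and also takes part in the response to symbiotic fungi. LYP4 and LYP6 are related LysM proteins that bind chitin and bacterial peptidoglycan, FLS2 is the leucine-rich repeat receptor kinase for bacterial flagellin, SERK2 is a co-receptor kinase for receptors of the leucine-rich repeat type, and RLCK185 is a cytoplasmic kinase that CERK1 phosphorylates and that passes the signal on to MAP kinases.

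The study asked which genes respond to linalool, a volatile monoterpene alcohol that plants release. Leaf blades of the fifth leaf of rice (Oryza sativa Japonica, cultivar Hinohikari) grown at 25 ºC were taken 24 h after treatment with 10 µM linalool, in 4 replicates, and 24 h after mock treatment, in 4 replicates. Each replicate was a pool of at least 3 plants at the stage of 5 leaves, hybridised to 1 single-colour Agilent array. The labels describe the controls both as mock-treated and as left without treatment, and they are called mock here. No allele or transgene is named for either group, and the tissue is a whole leaf blade with all its cell types.

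All 4 linalool arrays lay on 1 slide and all 4 mock arrays on another, so the effects of slide and of linalool cannot be told apart. Processed signals had a 75th percentile of 1092 to 1605 on linalool arrays and of 849.6 to 999.6 on mock arrays, and 73.3% to 77.3% of an array's spots stood well above background. A level is the log2 processed signal minus the log2 of that percentile. The leaf blade label was checked with the mesophyll markers RCA, RBCS, PsaH and CHLH, all 4 of which were well above background on every array. These markers also moved with the treatment: all 4 fell, with a median difference of -2.33, and their summed log2 level was 7.46 to 8.56 on linalool arrays and 10.2 to 10.4 on mock arrays. The phloem gene SUT1 fell by 1.10, 2 of 3 dividing-cell genes rose and the third was not tested, and 0 of 3 secondary wall genes were bright enough to test. By the test described below, 28.9% of all tested genes were higher and 38.5% lower. The markers were read relative to the 75th percentile only. The summed log2 level of the dividing-cell genes was -0.13 to -0.044 on linalool arrays and -0.46 to -0.22 on mock arrays, and the level of SUT1 was -1.15 to -0.51 on linalool arrays and 0.17 to 0.48 on mock arrays. In blades taken whole, fewer cells of a type and less RNA per cell cannot be told apart, and the part of cell composition in the results below was not tested.

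Of the 7 genes, CERK1 and SERK2 rose after linalool, LYP6 fell, and LYP4 fell at a signal close to background. CEBiP and RLCK185 did not pass the test, and FLS2 was too dim to be tested. A gene was tested with limma if 4 or more of the 8 arrays read a probe well above background, each gene by its brightest probe, and called at a Benjamini-Hochberg adjusted p below 0.05 over 21544 genes. The 4 of 6 tested genes that were called stand beside 67.4% of all tested genes (28.9% higher and 38.5% lower), so their share is near the background. The groups did not overlap for 4 of the 6 genes, against 63.4% of all tested genes. LYP4 is 1 of the 4 in both counts, and it met the filter with 3 mock arrays and 1 linalool array. The median difference was 0.00053 over the 6 genes and -0.10 over all genes.

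**Figure D1:**
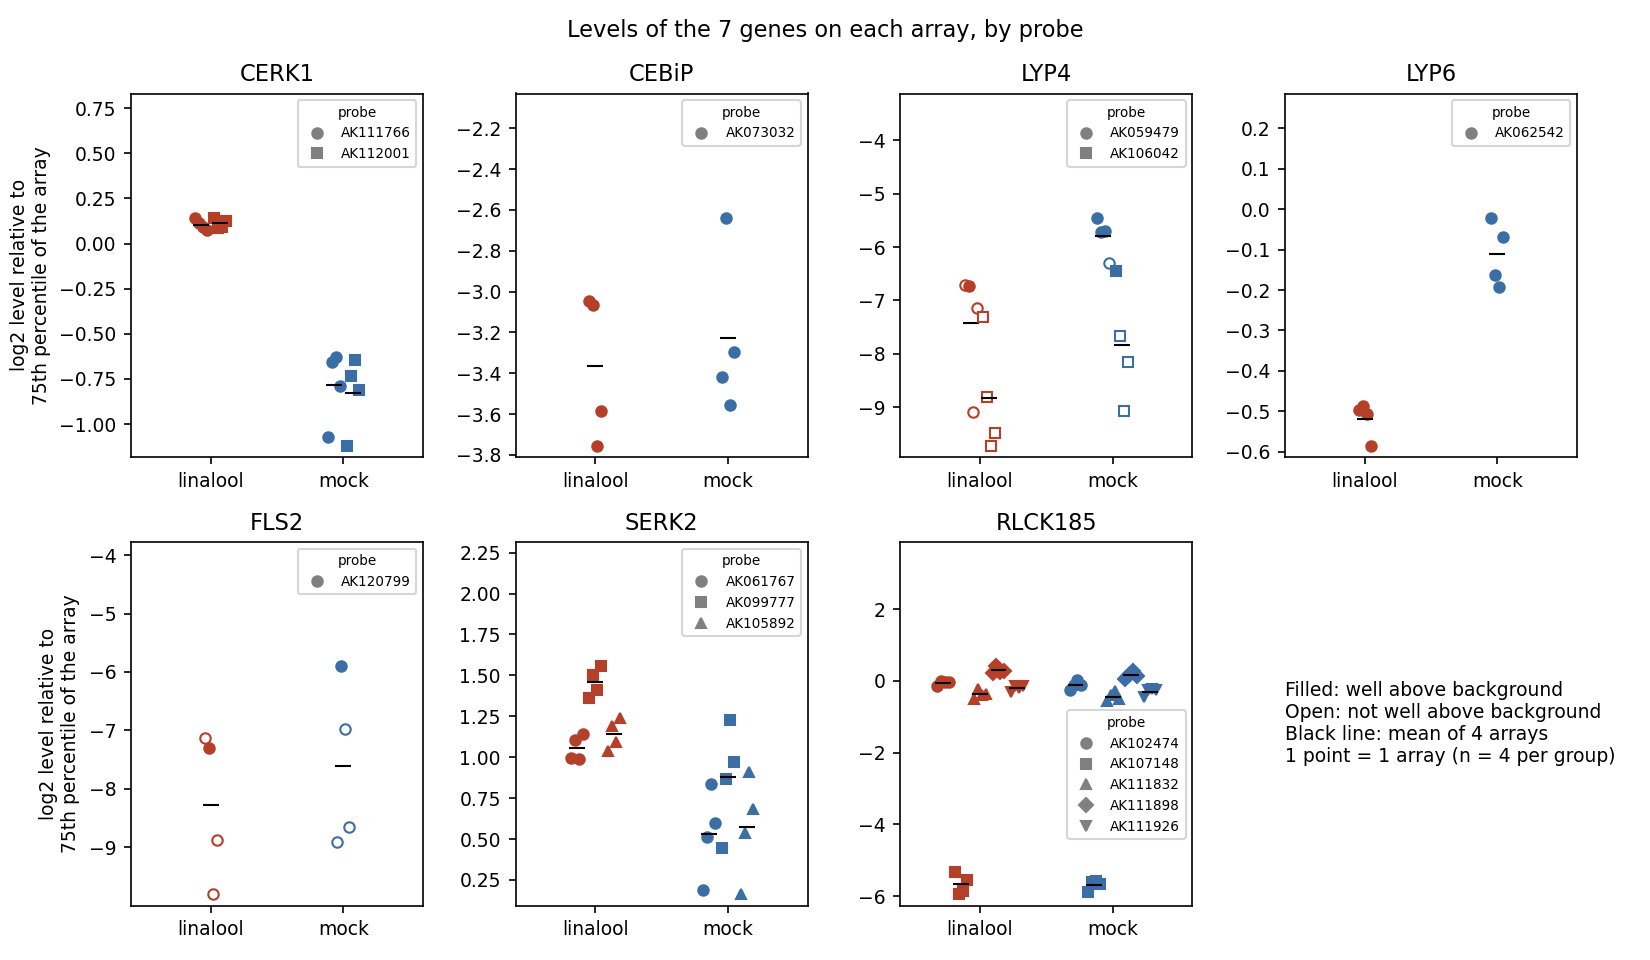
Log2 level relative to the 75th percentile of the array for each probe of the 7 genes, linalool left and mock right in each panel. Each point is 1 of 4 arrays per group, open where the probe was not well above background, and the black line is the mean. CERK1 and SERK2 lie higher on linalool arrays and LYP6 lower, with no overlap, while most LYP4 and FLS2 points are open.

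CERK1 gave the larger of the 2 rises. On its brighter probe, AK111766, the levels were 0.14, 0.12, 0.09 and 0.07 on linalool replicates 1 to 4, against -1.07, -0.66, -0.63 and -0.79 on mock replicates 1 to 4. Every linalool array lay above every mock array. The mean was 0.10 ± 0.029 after linalool and -0.79 ± 0.20 in mock (SD, n = 4 each). The difference was 0.89 (95% confidence interval 0.64 to 1.14), a 1.85-fold rise (limma adjusted p = 0.000147). An exact two-sided permutation test over the 8 arrays gave p = 0.0286, the smallest p that 4 against 4 allows.

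The second CERK1 probe, AK112001, gave the same picture. Its levels were 0.14, 0.09, 0.09 and 0.12 after linalool, against -1.12, -0.73, -0.65 and -0.81 in mock. Its difference was 0.94, within 0.050 of the first. The files assign both probes to the same transcript, so they are 2 readings of 1 RNA and not independent evidence. Before any scaling, the processed signal of AK111766 ran from 1203 to 1707 on the linalool arrays and from 414.6 to 577.8 on the mock arrays. The separation of CERK1 was therefore present in the unscaled signals. This was not particular to CERK1, because the linalool arrays were brighter in general. The brightest RLCK185 probe, which was not called, also separated unscaled, at 1272 to 2040 after linalool and 900.3 to 1095 in mock.

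CEBiP, the chitin-binding partner of CERK1, did not pass the test. Its single probe, AK073032, had levels of -3.04, -3.07, -3.76 and -3.59 on linalool replicates 1 to 4, against -3.42, -2.64, -3.56 and -3.30 on mock replicates 1 to 4. The groups overlapped over most of their range. The mean was -3.36 ± 0.36 after linalool and -3.23 ± 0.41 in mock (SD, n = 4 each), so linalool minus mock was -0.14 (limma adjusted p = 0.64). The 95% confidence interval, -0.69 to 0.42, leaves room for a modest change either way. The probe was well above background on all 8 arrays, with processed signals of 118.8 to 183.7 after linalool and 73.2 to 136.4 in mock.

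The other LysM proteins differed in how well they could be read. LYP6 was measured on every array by its single probe, AK062542, at -0.50, -0.49, -0.51 and -0.58 on linalool replicates 1 to 4 and at -0.02, -0.16, -0.19 and -0.07 on mock replicates 1 to 4. Every linalool array lay below every mock array, and the replicates were tight. The mean was -0.52 ± 0.045 after linalool and -0.11 ± 0.080 in mock (SD, n = 4 each). LYP6 thus fell by 0.41 (95% confidence interval -0.58 to -0.24), a 1.33-fold difference, with a limma adjusted p of 0.00138. This fall is relative to the 75th percentile: the unscaled signals overlapped, at 774.0 to 1129 after linalool and 753.1 to 952.2 in mock.

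LYP4 lay near the limit of detection. On its brighter probe, AK059479, the levels were -6.71, -6.72, -9.09 and -7.14 after linalool, of which 1 was well above background, against -5.45, -5.71, -5.69 and -6.31 in mock, of which 3 were. The probe just met the filter of 4 arrays, with 3 of them mock, the group where it was higher. Its call and its separation are therefore not independent of the filter. The groups did not overlap, and LYP4 fell by 1.63 (95% confidence interval -2.81 to -0.44, limma adjusted p = 0.0215). Linalool replicate 3 carried much of that value: without it the difference was -1.07, still called, and without mock replicate 1 the call was lost (-1.51, limma adjusted p = 0.0525). With normexp background correction the difference was -0.11 and was not called (limma adjusted p = 0.14). The processed signals were only 2.94 to 14.6 after linalool and 12.6 to 19.9 in mock, so the size of the fall is uncertain. The other LYP4 probe, AK106042, exceeded background clearly on 0 of 4 linalool and 1 of 4 mock arrays, was not tested, and had overlapping levels of -7.32, -8.81, -9.73 and -9.50 after linalool, against -6.45, -7.67, -9.08 and -8.15 in mock.

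FLS2, the flagellin receptor, could not be compared. Its probe, AK120799, was well above background on replicate 2 alone in each group. Its levels were -7.13, -7.29, -9.80 and -8.87 after linalool, against -8.90, -5.90, -6.97 and -8.66 in mock. The values overlapped and were spread over more than the distance between the groups, with a mean of -8.27 ± 1.29 after linalool and -7.61 ± 1.43 in mock (SD, n = 4 each). A change of FLS2 was not detectable at this signal, which does not show that there was none.

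SERK2, the co-receptor kinase, rose on all 3 of its probes. On the brightest, AK099777, the levels were 1.36, 1.5001, 1.41 and 1.56 on linalool replicates 1 to 4, against 0.44, 0.87, 1.23 and 0.97 on mock replicates 1 to 4. The groups did not overlap, although the highest mock array, replicate 3, came close to the lowest linalool array. The mean was 1.46 ± 0.087 after linalool and 0.88 ± 0.33 in mock (SD, n = 4 each). The difference was 0.58 (95% confidence interval 0.22 to 0.94), a 1.495-fold rise (limma adjusted p = 0.0108).

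The other SERK2 probes, AK105892 and AK061767, had differences of 0.57 and 0.52 with limma adjusted p of 0.0107 and 0.00851 over all probes, and their groups did not overlap either. The files assign AK099777 to transcript 01 of the locus and the other probes to transcript 02, and the 3 differences lay within 0.057 of each other. Over the 6552 genes with several tested probes, the median range between probes of a gene was 0.13. SERK1 (Os08g0174700), a close relative of SERK2, had a difference of -0.098 that did not pass (limma adjusted p = 0.53). Scaled to the spike-in control probes described below, SERK1 was called higher, by 0.61 (limma adjusted p = 0.0146), and SERK2 by 1.29. On that scale the median of all genes was 0.60, close to SERK1, and 56.6% of genes were called higher. Probe sequences were not analysed here, so the share of SERK1 RNA read by the SERK2 probes was not tested.

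RLCK185, the kinase downstream of CERK1, did not pass on any of its 5 probes, where 67.3% of all tested probes were called. On the brightest, AK111898, the levels were 0.22, 0.41, 0.25 and 0.28 on linalool replicates 1 to 4, against 0.05, 0.16, 0.27 and 0.13 on mock replicates 1 to 4. The groups overlapped through mock replicate 3. The difference was 0.14 (95% confidence interval -0.051 to 0.32, limma adjusted p = 0.17). The other 4 probes, which the files assign to transcripts 03, 04 and 05 of the locus, had differences of 0.0071 to 0.094. One of them, AK107148 for transcript 03, had processed signals of 25.0 to 30.6 after linalool and 14.7 to 19.9 in mock, and was well above background on all 8 arrays. The interval on AK111898 does not reach the size of the CERK1 rise.

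The mock arrays kept 1 order at their ends for 3 of these genes. Mock replicate 1 was the lowest mock array for all 10 probes of CERK1, SERK2 and RLCK185, and the highest for LYP6. Over all tested genes the same array was the lowest in mock for 32.7% and the highest for 35.1%. Without it, the difference was 0.80 for CERK1, 0.44 for SERK2 and -0.38 for LYP6, and all 3 were still called. Mock replicate 3 was the highest mock array for the same 10 probes, which belong to only 3 genes, and for 29.0% of all tested genes.

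How these changes read depends on what the arrays are scaled to. The array holds spike-in control probes for RNA added at labelling, and 6 of them were well above background on every spot. Their signals differed between the slides by -0.66 to 0.026 on the log2 scale, and 5 of the 6 by less than 0.12. Scaled to these probes, the median of all genes moved by 0.71, so that 56.6% of genes were called higher and 13.8% lower. With 4 of the 6 genes called, against 70.4% of all genes, CERK1 then rose by 1.598 (limma adjusted p = 1.14e-05), SERK2 by 1.29 (limma adjusted p = 0.000232), RLCK185 by 0.84 (limma adjusted p = 0.00142) and CEBiP by 0.57 (limma adjusted p = 0.0456). LYP6 turned to a difference of 0.30 that did not pass (limma adjusted p = 0.14), and LYP4 had a difference of -0.92 that did not pass (limma adjusted p = 0.0635). CERK1 and SERK2 were above the median of all genes, and LYP6 and LYP4 below it, under both scalings, and CEBiP lay just below it, since each scaling shifts all genes of an array alike.

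**Figure D2:**
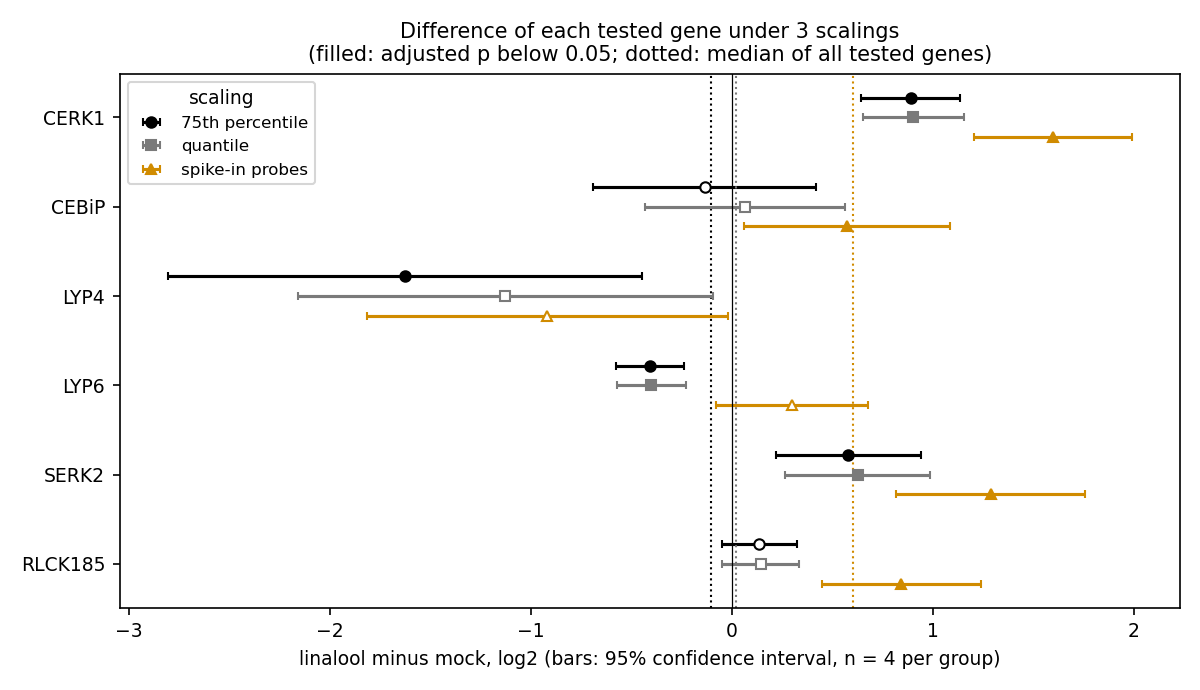
Difference between linalool and mock (log2, x axis) for the 6 tested genes with 95% confidence intervals, n = 4 per group, under 3 scalings of the arrays. Filled symbols passed an adjusted p of 0.05, and dotted lines mark the median of all tested genes, at -0.10 for the 75th percentile, 0.019 for quantile normalisation and 0.60 for the spike-in probes. All 6 genes shift upwards with the median of all genes under spike-in scaling, and CEBiP and LYP6 cross 0.

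The ratio of 2 genes on the same array does not change with a scaling that divides each array by 1 constant, as the 75th percentile and the spike-in probes do. It does change with quantile normalisation, under which the ratio of CERK1 to CEBiP rose by 0.84 and each of the 10 pairs kept its side of the threshold. It was computed for the 10 pairs of the 5 genes measured on every array, relative to its mean in mock, and compared with exact two-sided permutation tests over the 8 arrays, adjusted over the 10 pairs. Of these, 7 passed, each with an exact adjusted p of 0.0408, the smallest adjusted p reached. The share of pairs of other genes that would pass was not computed. For single genes, the groups did not overlap in 63.4% of all tested genes, which is not a share of pairs. The count of pairs is therefore not read as a trait of these genes, and whether it is one was not tested. CERK1 rose against each of the other 4: by 1.30 against LYP6, 1.03 against CEBiP, 0.75 against RLCK185 and 0.31 against SERK2, on the log2 scale. With normexp background correction the last of these was 0.13 and did not pass (exact adjusted p = 0.38).

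The ratio of CERK1 to LYP6 was the most even after linalool. It lay between 1.27 and 1.33 on the 4 linalool arrays and between -0.38 and 0.24 on the mock arrays, so the 2 genes moved apart 2.46-fold under any scaling by 1 constant per array. LYP6 also fell against SERK2 by 0.99 and against RLCK185 by 0.54, and SERK2 rose against RLCK185 by 0.44. The 3 pairs that did not pass were those of CEBiP with LYP6, SERK2 and RLCK185, with exact adjusted p of 0.34, 0.14 and 0.34, and in each of them the groups overlapped. CERK1, the kinase, and CEBiP, its chitin-binding partner, therefore changed unequally: their ratio lay between 0.74 and 1.40 on linalool arrays and between -0.46 and 0.49 on mock arrays. These ratios share genes and arrays and are not independent of each other.

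**Figure D3:**
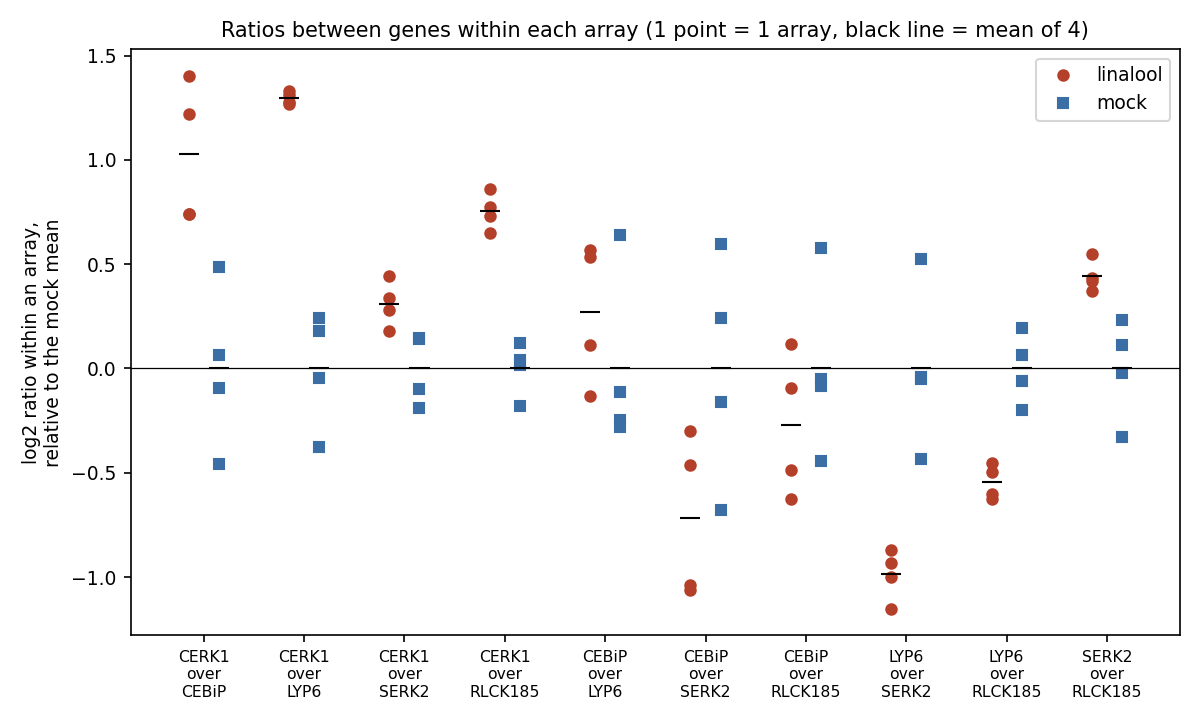
Log2 ratio of 2 genes within each array, relative to the mean ratio in mock (y axis), for 10 pairs, with linalool (circles) left of mock (squares). Each point is 1 array and the black line is the mean of 4. The groups are apart for every pair that includes CERK1, and overlap for the pairs of CEBiP with LYP6, SERK2 and RLCK185.

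The genes around these receptors moved in both directions. A list of 29 genes in 7 roles was taken, of which 27 could be tested: 10 rose, 6 fell and 11 did not pass, with a median difference of 0.33. The share called was 59.3%, against 67.4% of all tested genes, and this order turned with the scaling. With quantile normalisation 18 of the 27 genes were called, against 14305 of 21544 in all. Scaled to the spike-in probes, 24 of the 27 were called (88.9%), 21 higher (77.8%) and 3 lower (11.1%), against 70.4%, 56.6% and 13.8% of all genes. Symbols are given for the 8 whose name the reference holds uniquely on the chromosome of the locus, and other list members rest on recalled names.

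Among partners and related receptor kinases, BRI1 (Os01g0718300), the brassinosteroid receptor kinase, fell by 1.13, to -0.71 ± 0.041 after linalool against 0.43 ± 0.091 in mock (SD, n = 4 each, limma adjusted p = 7.39e-06). With spike-in scaling it fell by 0.43 (limma adjusted p = 0.0495). In the same list 1 gene rose, by 1.70, SERK1 did not pass and 1 gene was too dim to test. Of all tested genes, 28.9% were higher and 38.5% lower. With spike-in scaling SERK1 was called higher (0.61, limma adjusted p = 0.0146), where the all-gene median was 0.60 and 56.6% of genes were higher.

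Relative to the 75th percentile, none of the 4 genes for receptor folding and chaperones passed in limma, where 67.4% of all tested genes did. On that scale 0 of them had an unadjusted p below 0.05. They included SGT1 (Os01g0624500) and RAR1 (Os02g0535400), co-chaperones in resistance protein assembly, with differences of 0.21 and -0.067. RACK1A (Os01g0686800), a scaffold protein in the rice immune complex, had a difference of 0.19. Scaled to the spike-in probes, all 4 genes were called higher, by 0.64 to 1.07, where 56.6% of all genes were. With quantile normalisation RACK1A was called higher (0.26, limma adjusted p = 0.0471) and the other 3 did not pass.

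Of 6 ubiquitin ligases and regulators of receptor signalling, 3 rose and 2 fell, where 28.9% of all genes were higher and 38.5% lower. Scaled to the spike-in probes, 4 of the 6 were higher and 1 lower, where 56.6% and 13.8% of all genes were. XB3 (Os05g0112000), a ubiquitin ligase that binds the rice receptor kinase XA21, rose by 0.55, to -0.13 ± 0.12 after linalool against -0.67 ± 0.18 in mock (SD, n = 4 each, limma adjusted p = 0.00264). XB15 (Os03g0821300), a phosphatase that acts on the same receptor, had a difference of 0.53 that did not pass (limma adjusted p = 0.18), with a mock SD of 0.73. With spike-in scaling XB15 was called higher (1.24, limma adjusted p = 0.00356). Of the 3 genes for cytoplasmic kinases and a channel, which stand beside RLCK185 in the pathway, 1 rose, by 0.45, and 2 did not pass. Scaled to the spike-in probes, all 3 were called higher, by 0.57 to 1.16, where 56.6% of all genes were.

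All 3 genes listed for the Rac GTPase and its oxidase fell relative to the 75th percentile, where 38.5% of all genes were lower. Scaled to the spike-in probes, 1 of the 3 was lower and 2 did not pass, Os09g0544800 with a difference of 0.071. RbohB (Os01g0360200), an NADPH oxidase gene, fell by 1.12, to -0.88 ± 0.18 after linalool against 0.24 ± 0.23 in mock (SD, n = 4 each, limma adjusted p = 0.000175), and was not called with spike-in scaling (-0.42, limma adjusted p = 0.0532). Os01g0229400, the locus listed for the GTPase, fell by 2.15 (limma adjusted p = 1.00e-05), and by 1.44 with spike-in scaling (limma adjusted p = 9.77e-06).

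Of 6 genes of the MAP kinase cascade, 3 rose and 0 fell, where 28.9% of all genes were higher and 38.5% lower. Their median was 0.38, with differences from 0.061 to 0.87. For the 2 loci at the ends of that range the reference places the listed name on another chromosome, and without them 2 of 4 genes rose and 0 fell, with differences from 0.33 to 0.79. Scaled to the spike-in probes, all 6 genes of the cascade were called higher, by 0.77 to 1.58, where 56.6% of all genes were. With quantile normalisation 4 of the 6 were higher. Both tested genes of the transcription factor list rose, by 1.26 and 2.30, and by 1.97 and 3.01 with spike-in scaling. The all-gene shares given for the cascade apply to them too.

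**Figure D4:**
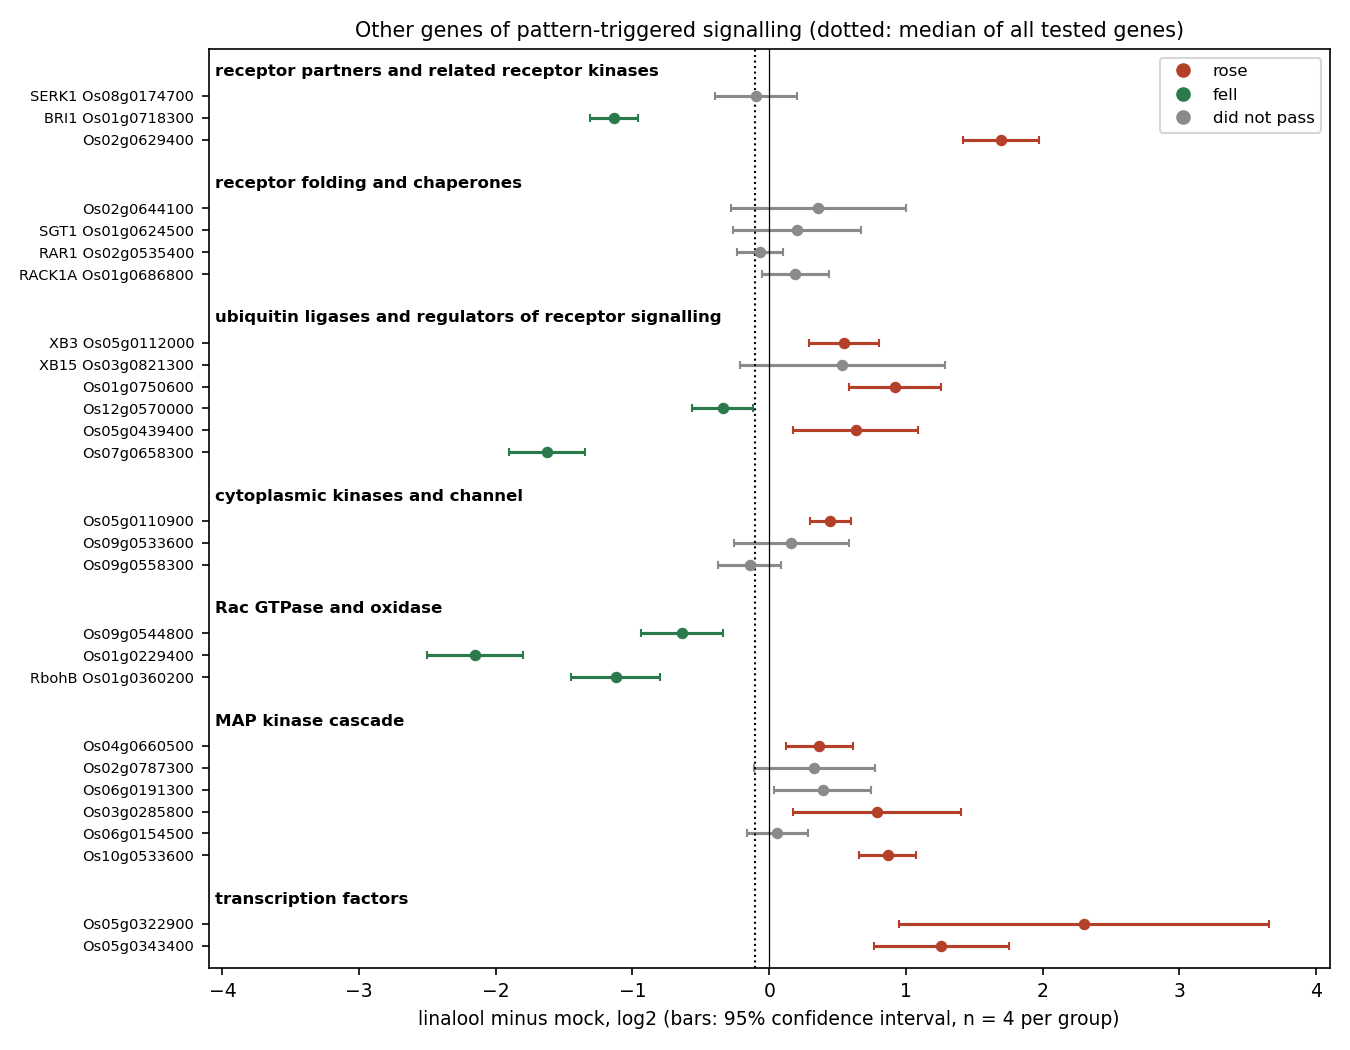
Difference between linalool and mock (log2, x axis) with 95% confidence intervals for the 27 tested genes of 7 pathway lists, n = 4 per group. Colours mark genes that rose, fell or did not pass, and the dotted line is the median of all tested genes at -0.10. All 3 genes of the Rac GTPase and oxidase list lie on the lower side, which holds for 2 of them with spike-in scaling, and the 6 of the MAP kinase list on the upper side, 3 of them without passing.

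Genes whose profile over the 8 arrays was most like that of a member were found by the root mean square distance between log2 profiles, each centred on its own mean, over 21516 genes. The profile nearest to CERK1 was that of Os07g0264100, at a distance of 0.043 and with a difference of 0.94. For SERK2 it was that of Os02g0761900, at a distance of 0.046 and with a difference of 0.57. For LYP6 it was that of Os05g0372200, at a distance of 0.040 and with a difference of -0.42. The nearest profile to LYP4 was far less close, at a distance of 0.36. The array files pair these loci with no symbol or product.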

How the data were processed

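Per the labels' protocols, total RNA was extracted with Trizol, and cRNA made from it carried Cy3. The deposited intensity values of each array come from Agilent Feature Extraction 10.7.3.1, per the file headers. Its background-subtracted processed signal, which is linear, was used. The deposited series matrix holds these intensity values multiplied by 1 constant per array (1.37 to 2.51, column medians 298.9 to 339.8), by a rule not given in the sources used here. Here, the 75th percentile over an array's non-control spots was subtracted on the log2 scale. Spots marked non-uniform (4 to 17 per array) or as population outliers (32 to 41) were left out, spots of a probe were averaged, and 0 were saturated. Of 42477 probes, 33120 entered the test of linalool minus mock (lmFit and eBayes of limma 3.58.1, R 4.3.3). Probes with conflicting locus names, which held 1358 non-control spots, were kept out of the gene values. The number of arrays limits the precision. P-values measure the spread between pools of plants.

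The genes, lists and tests were chosen with earlier results of these data known. All 7 genes are named whatever their values, pathway genes where the reference (assembly ASM3414082v1) bears out the symbol, and most-like genes for the 2 largest rises and falls. The pair ratios were added after seeing the data. Coordinates, and sequences of probes, promoters and proteins, were not analysed here. On data simulated for linalool minus mock over 33079 probes, the fit recovered 88.1% of 67 log2 changes of 2, 67.2% of 67 of 1 and 14.9% of 67 of 0.5, with 6 false calls. Only those probes were changed in the simulation, whereas 67.3% of tested probes were called in the data. The Benjamini-Hochberg adjustment is stricter with so few changes, so these are not the recovery rates of the real fit. Alternatives in scaling, background correction, values, filter, probes, test and replicates were run.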

Additional observations from a re-analysis of the deposited data

How the results depend on the processing

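Of 71 alternative counts of genes, probes, members or pathway genes called, 71 stayed within 1.5 times their main value. That is a weak check, because 67.4% of tested genes were already called in the main setting, which left little room to exceed the bound. The pathway count with spike-in scaling, 24 against 16, lay on the bound. Under the alternatives for the single genes, CERK1 and SERK2 kept their direction and call in all, and LYP6 in all but spike-in scaling (0.30). The size of the CERK1 rise varied, from 0.68 with normexp correction to 1.598 with spike-in scaling, against 0.89 in the main setting. CEBiP, which did not pass, changed sign with quantile normalisation (0.065), normexp correction (0.053), spike-in scaling (0.57, then called) and without mock replicate 2 (0.060). LYP4 was no longer called with quantile normalisation (-1.13), spike-in scaling (-0.92), normexp correction (-0.11) or without mock replicate 1 (-1.51). RLCK185 was called with spike-in scaling (0.84) and with scaling to each array's median (0.27). Leaving out 1 replicate at a time gave 13371 to 14593 genes, 20501 to 22445 probes, 3 to 4 members and 14 to 20 pathway genes called, and differences of 0.80 to 0.94 for CERK1, -0.25 to 0.060 for CEBiP, -1.86 to -1.07 for LYP4, -0.43 to -0.38 for LYP6, 0.44 to 0.70 for SERK2 and 0.098 to 0.18 for RLCK185. Same-numbered replicates were not paired: their deviations from the group means correlated at -0.11 to 0.17. For 2 of 4 linalool arrays, the mock array that correlated best carried the same number. With the replicate number as a block, 13825 genes and 4 members were called, and the block changed no member's call. The ratio of CERK1 to SERK2 no longer passed with normexp correction (0.13, exact adjusted p = 0.38), and the other pairs kept their side of the threshold. With that correction the ratio of CERK1 to CEBiP rose by 0.63, against 1.03 in the main setting. The permutation test cannot pass its threshold with 1 array left out, so for those settings the ratios were judged by size alone. The causes were not tested. LYP4 had no value where probes had to be above background on all arrays. Against 75th percentile scaling, the all-gene median moved by 0.71 with spike-in scaling, which took the share of called genes that were higher to 80.4%, against 42.9%, and by 0.13 with median scaling, 0.12 with quantile normalisation and 0.12 with normexp, where that share was 51.8%, 51.1% and 51.5%. LYP4 and FLS2 are limited by signal close to background.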
